A study of Brachypodium distachyon with 89 samples.

Results

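Group VII ethylene response factors (ERF-VIIs) were followed in *Brachypodium distachyon*, a small grass used as a model for cereals. The members were taken as every gene of the deposited table whose best *Arabidopsis thaliana* match, as the table's own annotation gives it, is RAP2.2, RAP2.3, RAP2.12, HRE1 or HRE2, the ERF-VIIs of that species. This rule found 7 of the 24467 genes in the table, and all 7 passed the filter on low values. They were Bradi4g31040 (match to RAP2.2), Bradi2g27920 (RAP2.3), Bradi1g46690 and Bradi3g60120 (both RAP2.12), Bradi1g72449 and Bradi1g72457 (both HRE1) and Bradi2g11890 (HRE2). The rule used no expression value.

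RNA was sequenced from 2 inbred ecotypes, Bd21, which the study treats as sensitive to submergence, and Bd21-3, which it treats as tolerant. Plants were 14 days old and were kept under normal growth conditions (NG, 150 µE of light), in low light in air (LL), or fully submerged (S, 70 µE), and shoots were collected at Zeitgeber times (ZT, hours after dawn) 0, 8, 16, 20 and 24. Each of the 30 groups of ecotype, treatment and time had 3 libraries, except Bd21 LL ZT24 with 2, and each library came from a pool of 5 plants. Submergence began before the night that preceded ZT0, and LL was its control for the dim light under water. Plants of 1 collection time shared a tank, so tank and time cannot be told apart, and the reads of both ecotypes were aligned to the Bd21 genome. The study's methods describe the 3 replicates of a group as independent. In such whole-shoot pools, more RNA per cell and more cells of a type cannot be told apart.

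ERF-VIIs are transcription factors that tie gene expression to oxygen supply in flowering plants. In *Arabidopsis*, their proteins begin with a conserved amino terminus whose cysteine is oxidised by plant cysteine oxidases (PCOs) when oxygen is present, after which an arginyl transferase and the ubiquitin ligase PRT6 mark the protein for destruction. When oxygen runs short the proteins persist and switch on genes of anaerobic metabolism such as alcohol dehydrogenase. RAP2.2, RAP2.3 and RAP2.12 are described there as made constitutively, and HRE1 and HRE2 as genes whose transcripts are themselves induced by low oxygen. In rice, the SUB1A and SNORKEL genes of the same group govern contrasting growth under flooding.

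Levels are given as deposited CPM, the reads of a gene scaled to the effective size of its library, at a depth of 3896851 to 16044727 reads per library. Levels are compared only within a gene, since gene lengths were not used here. All 11 green tissue markers were detected, as the labelled shoots would have them. Their summed level in S was 1250 to 21740 CPM in Bd21 and 2372 to 13050 CPM in Bd21-3, against 16430 to 53600 CPM and 18730 to 51450 CPM in LL. The summed level of 11 root markers had a median of 185 and 193 CPM in S of Bd21 and Bd21-3, against 81.8 and 97.2 CPM in LL. It ranged from 53.7 to 272 and 56.4 to 272 CPM in S, and from 64.4 to 93.1 and 83.7 to 122.5 CPM in LL. The median log2 fold change of these genes, S over LL, was -0.35 to 0.55 in Bd21 and -0.39 to 0.54 in Bd21-3. The part of tissue make-up in the results was not tested. Every S library had a higher summed level of the 58 hypoxia core genes (7958 to 48784 CPM) than any LL library (2510 to 4402 CPM). In NG the sum was 2199 to 3174 CPM in 29 libraries and 5578 CPM in replicate 3 of Bd21-3 at ZT8. That library stood apart from its group in 4 members as well, and LL over NG of these 4 at ZT8 of Bd21-3 is given with and without it. S over NG is given with it only.

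Submergence raised 4 of the 7 members at every time in both ecotypes. Bradi1g72457, Bradi2g11890, Bradi2g27920 and Bradi4g31040 were called risen in S over LL in all 10 comparisons of ecotype and time, and no member was called fallen. A call required a limma adjusted p under 5e-06 over all 24109 genes tested, an absolute log2 fold change (log2FC, on the log2(CPM + 1) scale, given ± its standard error) of 1.5 or more, and 15 CPM or more as the mean of either group. The calls came to 20 of 35 member comparisons in Bd21 and 20 of 35 in Bd21-3. Of all genes tested, 3.38%, 3.65%, 3.86%, 2.63% and 2.6% were called risen at ZT0, 8, 16, 20 and 24 in Bd21, and 4.24%, 3.21%, 3.73%, 3.28% and 2.84% in Bd21-3. Over the 5 times together, 3.68% of the tests of all genes were called fallen in Bd21 and 4.86% in Bd21-3. A rise in all 10 comparisons was called for 0.63% of the genes tested, 152 in number. The median log2FC of the 7 members lay between 1.93 and 3.10 over the times in Bd21 and between 1.92 and 3.77 in Bd21-3, and that of all genes between -0.08 and 0.02 and between -0.12 and 0.01.

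**Figure D1:**
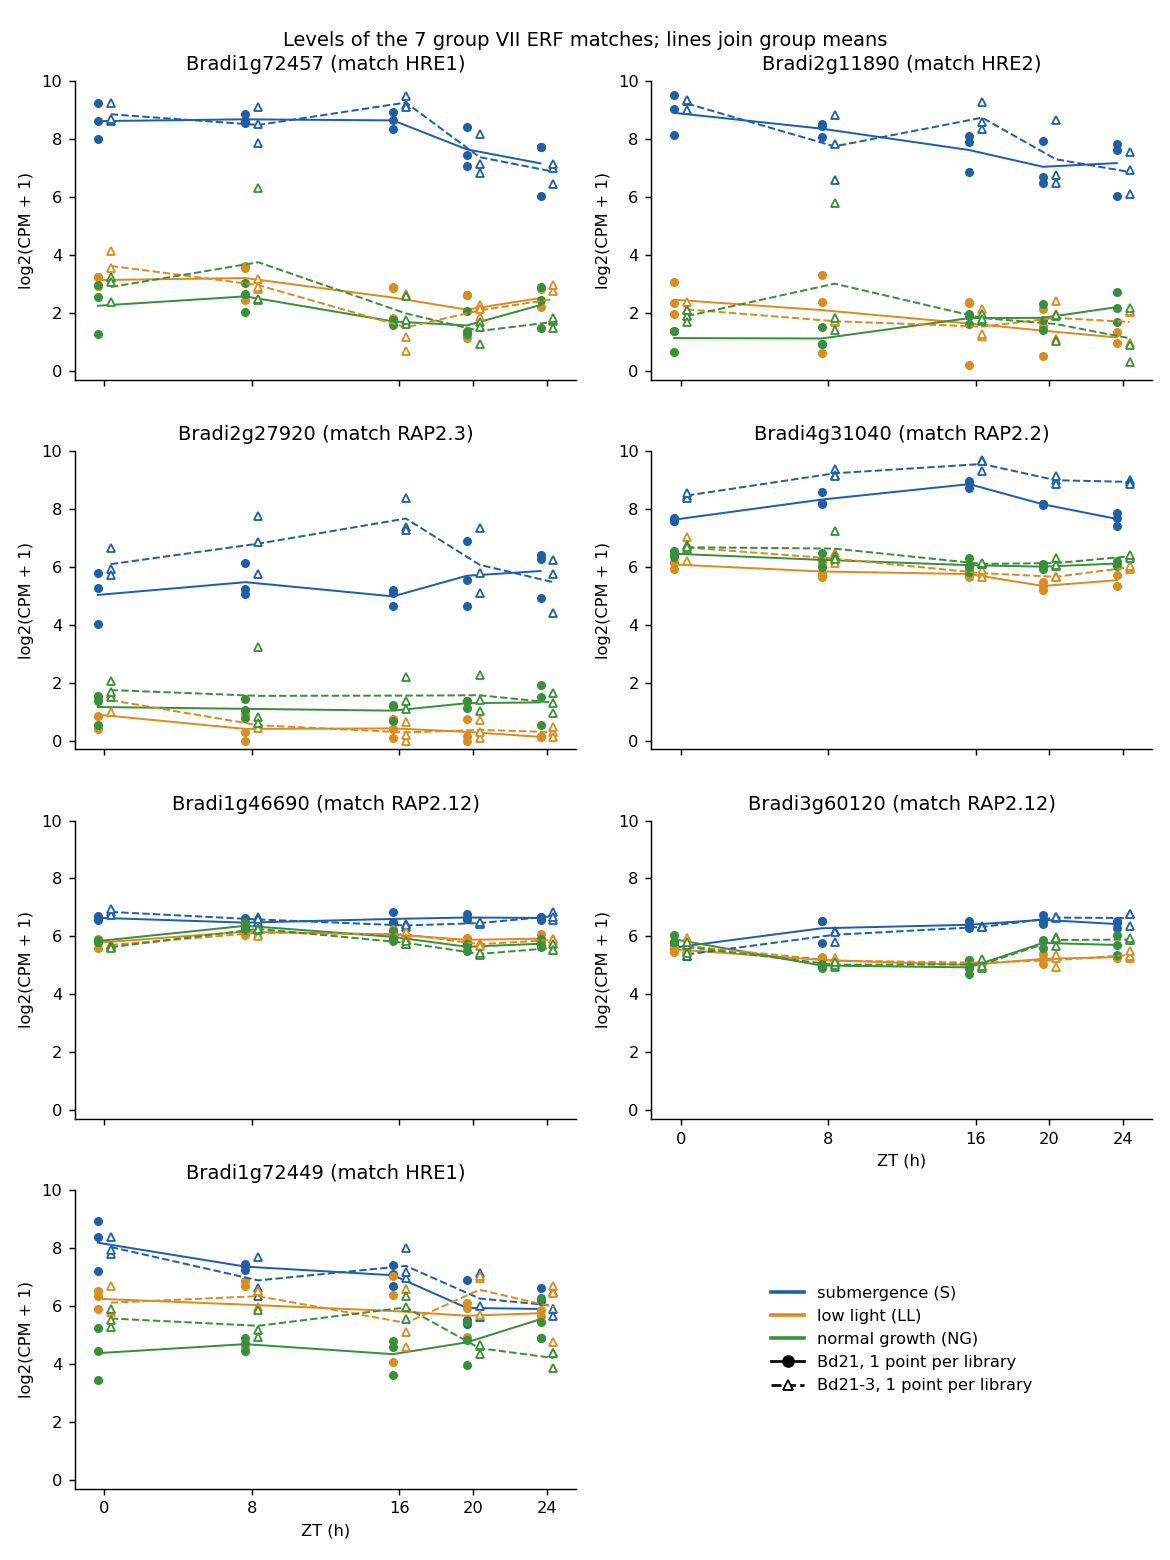
Level of each member in every library, as log2(CPM + 1) on the y axis against ZT in hours on the x axis, with 1 panel per member, colours for S, LL and NG, filled circles and solid lines for Bd21, open triangles and dashed lines for Bd21-3, and lines through the group means. Bradi1g72457, Bradi2g11890 and Bradi2g27920 sit near the bottom of their panels in LL and NG and far above in S, Bradi4g31040 starts from a middle level, and the RAP2.12 matches Bradi1g46690 and Bradi3g60120 move little.

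The members fell into 4 patterns, which the account follows by their Arabidopsis matches. The matches to HRE1 (Bradi1g72457), HRE2 (Bradi2g11890) and RAP2.3 (Bradi2g27920) were scarce in air and abundant under water. The RAP2.2 match, Bradi4g31040, was present in air and several times higher under water. Both RAP2.12 matches were present in air and less than 1.5 higher on the log2 scale under water, and the second HRE1 match, Bradi1g72449, was spread widely among replicates, with S and LL overlapping at 3 of 5 times.

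**Figure D2:**
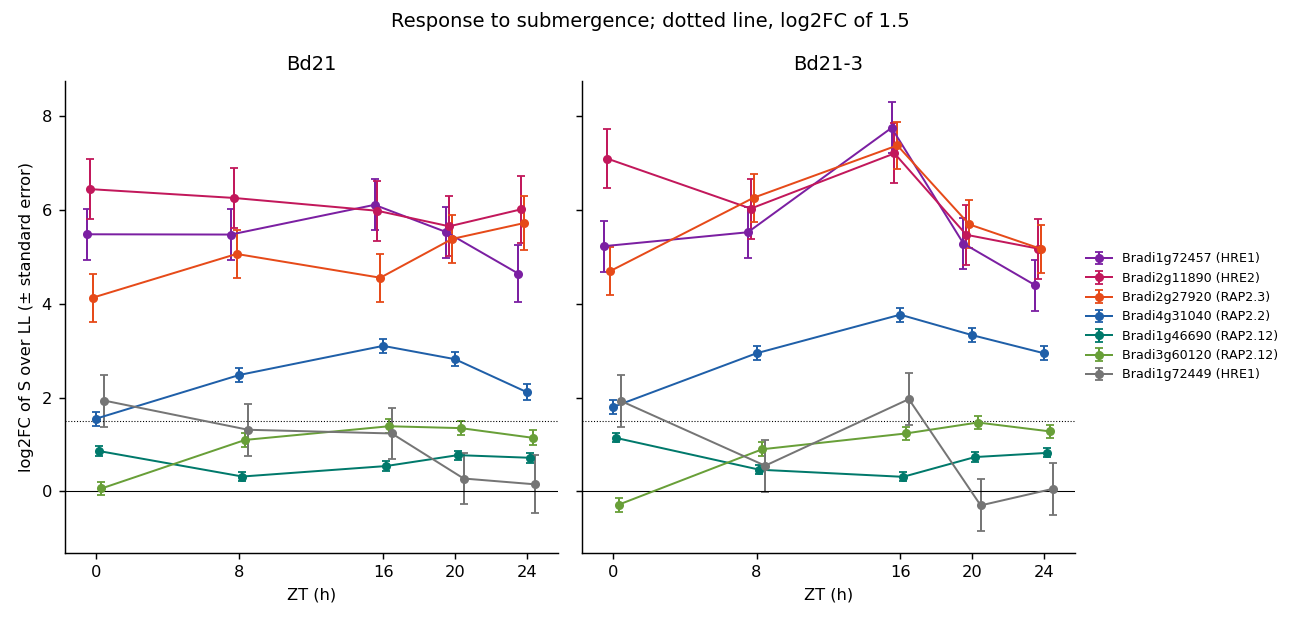
S over LL of each member as log2FC (y axis, log2(CPM + 1) scale) against ZT in hours (x axis), with 1 panel per ecotype, a line per member, bars of 1 standard error from limma and a dotted line at the limit of 1.5. Bradi1g72457, Bradi2g11890 and Bradi2g27920 lie between 4.13 and 7.76, Bradi4g31040 between 1.55 and 3.77, and the other 3 members between -0.30 and 1.97.

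Bradi1g72457 matches HRE1 of *Arabidopsis*, one of its hypoxia-induced ERF-VIIs. In LL it ranged from 1.18 to 11.3 CPM with a median of 6.18 over the 14 libraries of Bd21 and from 0.591 to 16.5 CPM with a median of 5.83 over the 15 of Bd21-3. Under submergence, replicates 1, 2 and 3 at ZT0 had 393, 598 and 255 CPM in Bd21 and 390.4, 412 and 611 CPM in Bd21-3, and at ZT8 393, 378 and 459.5 CPM and 229.8, 362 and 547 CPM. Every one of these 12 libraries was above every LL library of the gene. At ZT16 the S libraries had 321, 405 and 485 CPM in Bd21 and 576, 720.4 and 549.9 CPM in Bd21-3, the latter holding the highest group mean of the gene, 616 ± 91.7 CPM (SD, n = 3). In the following night, at ZT20, they had 344, 133 and 172 CPM and 289.8, 138 and 111 CPM, and at ZT24 212, 211 and 63.7 CPM and 127, 87.2 and 141 CPM. Group means were thus lower in the second night under water than at ZT16, and replicates 1 and 2 of Bd21 at ZT24 had over 3 times the level of replicate 3. The log2FC of S over LL was 4.65 to 6.11 in Bd21 (limma adjusted p 2.3e-15 to 1.6e-09) and 4.40 to 7.76 in Bd21-3 (7.1e-20 to 2.3e-10), the highest value falling at ZT16 of Bd21-3. As a ratio of mean CPM, S over LL ran from 24.0 to 258, the latter with a 95% interval of 201 to 337 that covers counting error only.

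Bradi2g11890 matches HRE2, the other hypoxia-induced ERF-VII. Its LL levels were 0.149 to 8.96 CPM with a median of 3.11 in Bd21 and 0.938 to 4.37 CPM with a median of 2.73 in Bd21-3. When submerged, the 3 libraries at ZT0 held 529.7, 737 and 279 CPM in Bd21 and 517, 630.1 and 649.8 CPM in Bd21-3. This was the time of its highest mean in both ecotypes, 515 ± 229 CPM and 599 ± 71.6 CPM (SD, n = 3 each). Later in the day the libraries had 351, 269 and 369 CPM and 95.3, 227 and 449.8 CPM at ZT8, and 115, 272 and 239 CPM and 326, 622 and 379 CPM at ZT16. In the second night they had 244, 88.8 and 103 CPM and 399.6, 108 and 88.8 CPM at ZT20, and 198, 228 and 64.6 CPM and 122, 67.7 and 185 CPM at ZT24. All 30 S libraries lay above all 29 LL libraries, although replicates of 1 S group differed by up to 4.72 times. Its log2FC was 5.65 to 6.45 in Bd21 (limma adjusted p 2.1e-13 to 9.7e-11) and 5.18 to 7.21 in Bd21-3 (1.8e-15 to 2.4e-10).

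Bradi2g27920 matches RAP2.3, which in *Arabidopsis* is counted with the constitutive ERF-VIIs. Here it was low in air. In LL it ranged from 0 to 1.71 CPM with a median of 0.278 in Bd21 and from 0 to 2.03 CPM with a median of 0.375 in Bd21-3, and 3 of the 29 LL libraries had no read of it. In NG it ranged from 0.446 to 2.81 CPM with a median of 1.34 in Bd21 and from 0.514 to 8.38 CPM with a median of 1.64 in Bd21-3, the highest being replicate 3 of Bd21-3 at ZT8. Submerged plants had 37.5, 54.1 and 15.3 CPM at ZT0 in Bd21 and 59.3, 51.4 and 98.9 CPM in Bd21-3, and at ZT8 31.9, 36.7 and 68.6 CPM and 53.4, 115 and 216 CPM. At ZT16 the 2 ecotypes had 23.9, 35.7 and 33.2 CPM and 166, 327 and 151 CPM, so that every Bd21-3 library was above every Bd21 library at this time. After dark the values were 119, 23.7 and 45.2 CPM and 159, 53.8 and 33.2 CPM at ZT20 and 83.3, 75.2 and 29.0 CPM and 53.0, 20.4 and 73.4 CPM at ZT24, and the ecotypes overlapped again. The log2FC was 4.13 to 5.72 in Bd21 (limma adjusted p 2.9e-14 to 3.1e-10) and 4.70 to 7.38 in Bd21-3 (4.3e-20 to 3.5e-12). With so few reads in LL the log2FC understates the change, and ratios of mean CPM are loosely set. At ZT24 of Bd21 the 2 LL libraries held 2 reads together, and the ratio was 669 with a 95% counting interval of 185 to 5522. The mean at this time was 62.5 CPM in S, 0.0934 CPM in LL and 1.69 CPM in NG, so a ratio to NG would be far smaller. In the other 9 groups the LL libraries held 6 to 51 reads together, and the ratio ran from 37.9 (interval 25.4 to 59.1) to 897 (interval 412 to 2444).

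Bradi4g31040 matches RAP2.2, a constitutive ERF-VII that activates hypoxia genes in *Arabidopsis*. It was present in air and had small spread between replicates. In S at ZT0 replicates 1, 2 and 3 had 190.2, 192 and 207 CPM in Bd21 and 349, 331 and 373 CPM in Bd21-3, against 71.1, 68.9 and 60.1 CPM and 73.2, 105 and 130.4 CPM in LL. At ZT8 the S libraries had 377, 287 and 296 CPM and 657, 579 and 558 CPM, and the LL libraries 48.7, 53.0 and 68.3 CPM and 74.9, 87.0 and 69.1 CPM. By ZT16 the S libraries had reached 498, 415 and 471 CPM and 816, 636 and 799 CPM, whereas LL held 49.1, 59.0 and 50.6 CPM and 54.1, 58.3 and 49.4 CPM. This was the zenith of the gene under water in both ecotypes, while its highest mean in LL was at ZT0 in both. At ZT20 the S libraries had 287, 279 and 285 CPM and 505, 558 and 458 CPM, over LL values of 36.0, 39.3 and 43.1 CPM and 49.6, 49.1 and 49.2 CPM. At ZT24 the S values were 206, 167 and 231 CPM and 509.7, 481 and 466 CPM, over 51.7 and 39.8 CPM in the 2 LL libraries of Bd21 and 60.0, 62.0 and 64.6 CPM in Bd21-3. No S library fell to the level of an LL library at any time. The log2FC at ZT0, 8, 16, 20 and 24 was 1.55, 2.48, 3.10, 2.82 and 2.11 in Bd21 and 1.80, 2.94, 3.77, 3.33 and 2.94 in Bd21-3, with standard errors of 0.15 to 0.17 and limma adjusted p of 1.0e-26 to 1.4e-13 and 2.8e-31 to 2.6e-16. The value of Bd21 at ZT0 is close to the limit of 1.5. Without replicate 3 of its LL group it was 1.47, which is not called.

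Bradi1g46690 and Bradi3g60120 both match RAP2.12, the constitutive ERF-VII most studied as an oxygen sensor in *Arabidopsis*. Neither was called in any of the 10 comparisons of S with LL. Bradi1g46690 ranged from 76.5 to 114 CPM with a median of 96.4 in S of Bd21 and from 78.8 to 124 CPM with a median of 94.1 in S of Bd21-3, against 47.8 to 74.7 CPM with a median of 60.2 and 49.8 to 76.5 CPM with a median of 59.3 in LL. Every S library was above every LL library at all 5 times in both ecotypes, but the difference was small. At ZT8 of Bd21 the lowest S library had 76.5 CPM and the highest LL library 74.4 CPM. Its log2FC was 0.31 to 0.86 in Bd21 and 0.31 to 1.14 in Bd21-3, with limma adjusted p as low as 4.9e-16, and was highest at ZT0 in both. Bradi3g60120 held 44.1, 48.7 and 51.5 CPM in S of Bd21 at ZT0 and 43.0, 47.9 and 47.5 CPM in LL, and in Bd21-3 39.1, 38.7 and 44.6 CPM and 46.1, 44.2 and 60.9 CPM. The log2FC at this time was 0.06 ± 0.15 (adjusted p = 0.76 by limma) in Bd21 and -0.29 ± 0.15 (adjusted p = 0.088 by limma) in Bd21-3. From ZT8 onward every S library was above every LL library, and the log2FC lay between 0.90 and 1.47, all under the limit for a call. At ZT20 the S libraries of Bd21-3 had 98.5, 99.8 and 100.2 CPM and the LL libraries 37.5, 29.6 and 39.7 CPM. The difference there was called in edgeR's quasi-likelihood fit (log2FC 1.52), which makes 21 calls in Bd21-3 where limma makes 20, and in limma without replicate 1 or 3 of the LL group (1.51 and 1.55).

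Bradi1g72449 also matches HRE1 and carries an identifier next to that of Bradi1g72457. The pair may share reads, since near-identical copies can split or lose them, and the values of both are uncertain to that extent. Bradi1g72449 had 28.9 to 491 CPM with a median of 136 in S of Bd21 and 48.8 to 335 CPM with a median of 125 in S of Bd21-3, against 15.9 to 129.7 CPM with a median of 64.9 and 22.9 to 130.1 CPM with a median of 86.2 in LL and 9.95 to 77.5 CPM with a median of 27.0 and 13.6 to 81.1 CPM with a median of 35.1 in NG. It was thus well above 1 CPM in air, and it was not called in S over LL. At ZT0 the S libraries had 336, 491 and 149 CPM in Bd21 and 222, 243 and 335 CPM in Bd21-3, all above the LL libraries with 91.1, 58.6 and 80.4 CPM and 54.4, 102 and 58.1 CPM. The log2FC at ZT0 was 1.93 ± 0.55 (adjusted p = 0.0025 by limma) in Bd21 and 1.92 ± 0.55 (adjusted p = 0.0024 by limma) in Bd21-3. Against NG in place of LL, the value of Bd21 at ZT0 was 3.81 ± 0.55 (adjusted p = 2.7e-08 by limma). By ZT24 the S libraries had 70.9, 99.0 and 28.9 CPM and 58.7, 50.0 and 88.9 CPM and the LL libraries 57.4 and 49.1 CPM and 104, 86.2 and 26.0 CPM, and the groups overlapped in both ecotypes. Over all times the log2FC was 0.15 to 1.93 in Bd21 and -0.30 to 1.97 in Bd21-3, and S and LL libraries did not overlap at 2 of 5 times in each.

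Counted over the members, every S library was above every LL library at all 5 times for 5 of 7 members in both ecotypes, the exceptions being Bradi3g60120 and Bradi1g72449. Over all genes tested the share was 6.93% in Bd21 and 8.8% in Bd21-3. The calls rest on a spread estimated over all 30 groups. Where limma was fitted to the compared groups alone, 1 of the 20 calls remained in each ecotype at the limit of 5e-06, while all 20 kept an adjusted p under 0.05 (3.3e-06 to 0.0031 in Bd21, 1.7e-06 to 9.9e-04 in Bd21-3). In that fit the share of all tests called risen fell from 3.22% to 0.157% in Bd21 and from 3.46% to 0.119% in Bd21-3.

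The comparison of LL with NG covers dim light in air and a change of place together. By the study's methods, LL plants were moved to tanks without water and NG plants were left in place. Light and the move cannot be told apart here. No member was called in either ecotype, of 35 comparisons each. Of all tests of all genes, 0.794% were called in Bd21 and 0.812% in Bd21-3. At an unadjusted p under 0.05 limma gave 15 and 14 member comparisons, and edgeR 14 and 16 with 0 calls. Bradi4g31040 was lower in LL at ZT20, with log2FC -0.67 ± 0.15 (adjusted p = 4.6e-04 by limma) in Bd21 and -0.47 ± 0.15 (adjusted p = 0.015 by limma) in Bd21-3. Bradi3g60120 was likewise lower at ZT20, with -0.55 ± 0.15 (adjusted p = 0.0028 by limma) and -0.69 ± 0.15 (adjusted p = 1.7e-04 by limma). For both genes this direction was opposite to that of S over LL at ZT20. Bradi2g27920 had LL over NG values below 0 in all 10 groups, -1.19 to -0.26 in Bd21 and -1.27 to -0.35 in Bd21-3, with an adjusted p under 0.05 only at ZT16 of Bd21-3 (-1.27, adjusted p = 0.045 by limma). Bradi1g72449 had its largest value at ZT20 of Bd21-3, where the LL libraries held 50.3, 126 and 130.1 CPM and the NG libraries 23.4, 24.6 and 19.6 CPM, a log2FC of 2.02 ± 0.55 (adjusted p = 0.0039 by limma).

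One NG library stood apart in the members that submergence raised. Replicate 3 of Bd21-3 at ZT8 had 77.7 CPM of Bradi1g72457, against 4.47 and 4.62 in replicates 1 and 2. It had 54.3 CPM of Bradi2g11890 against 2.54 and 1.67, and 8.38 CPM of Bradi2g27920 against 0.746 and 0.514. For Bradi4g31040 it had 149.9 CPM against 81.3 and 76.3. In these 4 genes it was above all 29 other NG libraries, in the same genes that rose under water, whereas Bradi1g46690, Bradi3g60120 and Bradi1g72449 lay within the range of the others. It belongs to neither side of S over LL, but it enters the spread that all comparisons of a gene share. At ZT8 of Bd21-3, LL over NG of Bradi1g72457 was -0.79 with it and 0.49 without it, that of Bradi2g11890 -1.30 and 0.09, that of Bradi2g27920 -1.01 and -0.17, and that of Bradi4g31040 -0.35 and -0.04, none of them called in limma. Without it, 0 members were called in LL over NG of Bd21-3 and between ecotypes in NG, as with it.

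Calls for a response that differed between times went to 2 members. A test of whether S over LL differed between the 5 times called Bradi4g31040 in both ecotypes, with a range of 1.56 on the log2 scale in Bd21 (limma adjusted p = 4.8e-08) and 1.97 in Bd21-3 (adjusted p = 1.4e-10), and Bradi3g60120 in Bd21-3, with 1.75 (adjusted p = 1.5e-10). These were 3 of 14 tests, where 9.22% of all genes were called in Bd21 and 9% in Bd21-3. At an unadjusted p under 0.05 limma and edgeR each gave 9. A limma adjusted p under 0.05 was also reached by 9, in other members as well, listed among the flagged results. The response of Bradi4g31040 was smallest at ZT0 and greatest at ZT16 in both ecotypes. That of Bradi3g60120 was about 0 at ZT0 and present at all later times. In Bd21, without replicate 1 of S at ZT16, the range of Bradi4g31040 was 1.499 and its call was lost.

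Comparing ZT24 with ZT0 sets the end of the second night against that of the first. In S, no member was called of 14 comparisons, where 7.14% of the tests of all genes were called. At an unadjusted p under 0.05 limma and edgeR each gave 9. Bradi3g60120 was higher at ZT24 by 0.81 ± 0.15 (adjusted p = 2.9e-06 by limma) in Bd21 and 1.25 ± 0.15 (adjusted p = 4.0e-11 by limma) in Bd21-3, both under the fold limit. Bradi1g72457 had a log2FC of -1.46 ± 0.54 (adjusted p = 0.019 by limma) in Bd21 and -1.98 ± 0.54 (adjusted p = 0.0015 by limma) in Bd21-3. For Bradi2g11890 the values were -1.73 ± 0.64 (adjusted p = 0.018 by limma) and -2.36 ± 0.64 (adjusted p = 0.0013 by limma). Bradi1g72449 had -2.29 ± 0.55 (adjusted p = 3.5e-04 by limma) and -2.02 ± 0.55 (adjusted p = 0.0015 by limma). In S the HRE1 and HRE2 matches thus had lower means at the second dawn, and a RAP2.12 match a higher one. None passed all limits of a call. Values in LL were also below 0 for Bradi1g72457 (-1.14 to -0.62), Bradi2g11890 (-1.30 to -0.44) and Bradi1g72449 (-0.50 to -0.15). These LL values had no adjusted p under 0.05 by limma. Bradi3g60120 had -0.31 to -0.27 in LL, opposite in direction to S. Bradi4g31040 had -0.68 to -0.54 in LL (limma adjusted p 3.6e-04 to 0.014) and 0.03 to 0.47 in S (limma adjusted p 0.0071 to 0.91). In LL no member was called either, with 0.651% of the tests of all genes called and an unadjusted p under 0.05 in 5 member comparisons by limma and 4 by edgeR. In NG the count was 0 of 14 members and 0% of all tests, with 5 by limma and 4 by edgeR at that unadjusted level.

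Within 1 treatment and ecotype, no member passed the limits for a change between times in 42 tests, where 4.96% of all tests were called. At an unadjusted p under 0.05 limma gave 27 and edgeR 28. edgeR called 1, Bradi1g72457 in NG of Bd21-3, a series of groups that holds the NG library standing apart, and limma gave it a range of 2.37 with that library (adjusted p = 0.0014) and 1.52 without it (adjusted p = 0.033). In NG, Bradi1g46690 was highest at ZT8 and lowest at ZT20 in both ecotypes, with a range of 0.72 in Bd21 (limma adjusted p = 5.8e-08) and 0.86 in Bd21-3 (adjusted p = 7.8e-10). Without the library that stood apart, its range in Bd21-3 was also 0.86 (limma adjusted p = 6.5e-08). Bradi3g60120 in NG held 31.6, 28.9 and 32.4 CPM at ZT8 of Bd21 and 58.5, 56.5 and 47.1 CPM at ZT20, with a range over times of 0.97 (adjusted p = 4.2e-09). Its highest mean in NG was at ZT0 in Bd21 and at ZT24 in Bd21-3. In LL its highest mean was at ZT0 in both ecotypes, and that of Bradi1g46690 at ZT8 in both.

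Submergence raised the same 4 members in both ecotypes, and 1 of them, Bradi4g31040, had higher values in tolerant Bd21-3 at all times under water, by less than the fold limit for a call. No member was called between ecotypes in S, of 35 comparisons, with 0.949% of the tests of all genes called and an unadjusted p under 0.05 in 10 member comparisons by limma and 9 by edgeR. In LL 0.694% of all tests were called and in NG 0.572%, again with 0 members, and with 4 (edgeR 4) and 9 (edgeR 8) member comparisons under 0.05 unadjusted. Every Bd21 library in S was below every Bd21-3 library in S at all 5 times for Bradi4g31040, as for 1.95% of the genes tested. Its log2FC of Bd21 over Bd21-3 in S was -0.83 ± 0.15 (adjusted p = 2.2e-05 by limma) at ZT0 and -1.28 ± 0.15 (adjusted p = 4.1e-10 by limma) at ZT24, with -0.91, -0.69 and -0.83 between them. In LL the same difference was -0.58 to -0.03. Its unadjusted p by limma was under 0.05 at 4 of 5 times and its adjusted p at 1. In NG it was -0.39 to -0.04, with an unadjusted p under 0.05 at 1 of 5 times and an adjusted p at 0. The lowest of these NG values, at ZT8, was -0.08 without replicate 3 of Bd21-3. All values in air were thus on the same side of 0 as those under water.

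**Figure D3:**
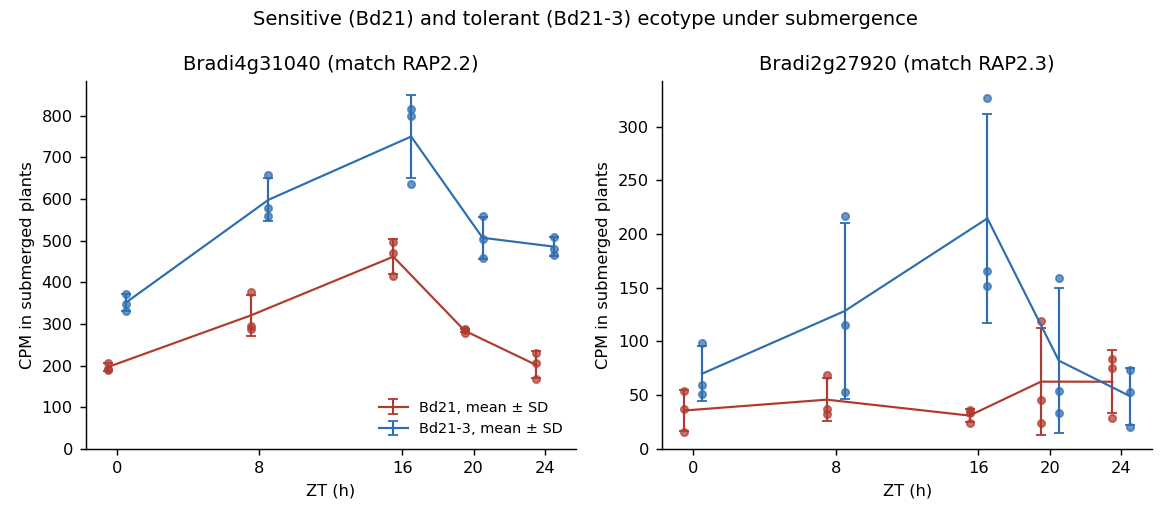
Level in S of Bradi4g31040 (left) and Bradi2g27920 (right) in CPM (y axis) against ZT in hours (x axis) in Bd21 and Bd21-3, with 1 point per library and bars of the mean ± SD (n = 3). For Bradi4g31040 every point of Bd21 lies below every point of Bd21-3 at each time, and for Bradi2g27920 this holds at ZT16 only.

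Whether the response itself differed between ecotypes was tested as an interaction, the log2FC in Bd21-3 less the one in Bd21. No member was called of 35, where 0.163% of the tests of all genes were, and an unadjusted p under 0.05 was reached by 7 member comparisons in limma and 5 in edgeR. For Bradi4g31040 the interaction was 0.25, 0.46, 0.67, 0.51 and 0.83 at ZT0, 8, 16, 20 and 24, with limma adjusted p of 0.73, 0.17, 0.031, 0.19 and 0.03. All 5 values were above 0, that is, the rise was larger in Bd21-3, but none passed the limits. Bradi2g27920 had the largest single value, 2.82 ± 0.72 (adjusted p = 0.0049 by limma) at ZT16, where its level in S differed between ecotypes by -2.69 ± 0.51 (adjusted p = 2.6e-05 by limma). At the other 4 times its libraries in S overlapped between ecotypes. For the HRE1 and HRE2 matches Bradi1g72457 and Bradi2g11890, the ecotypes overlapped in S at 4 of 5 times. The exception was ZT16 for both, where every Bd21-3 library was above every Bd21 library, as for Bradi2g27920. The lowest limma adjusted p between ecotypes in S over the 5 times was 0.44 for Bradi1g72457 and 0.20 for Bradi2g11890. No difference in response of these 2 genes reached an adjusted p of 0.05 by limma.

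Replicates of 1 S group differed widely in 3 of the raised members and little in the fourth. The highest library had a median of 1.98 times the lowest for Bradi1g72457 over the 10 S groups, 2.68 for Bradi2g11890 and 3.20 for Bradi2g27920. For Bradi4g31040 the median ratio was 1.19, for Bradi1g46690 1.13, for Bradi3g60120 1.19 and for Bradi1g72449 2.3. The order of the libraries was often shared between genes, which is given as a description with no test. A single library was the highest of its group for Bradi1g72457, Bradi2g11890 and Bradi2g27920 in 8 of the 10 S groups, and a single library the lowest for all 3 in 7. Bradi1g72449, which was not called, had the same highest library as Bradi2g11890 in 10 of 10 S groups, as Bradi2g27920 in 9 and as Bradi1g72457 in 8. At ZT20, for example, replicate 1 was the highest for all 3 in both ecotypes, with 119 CPM of Bradi2g27920 in Bd21 against 23.7 and 45.2. In the same 3 Bd21 libraries Bradi4g31040 had 287, 279 and 285 CPM, the narrowest set of any of its S groups of Bd21.

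**Figure D4:**
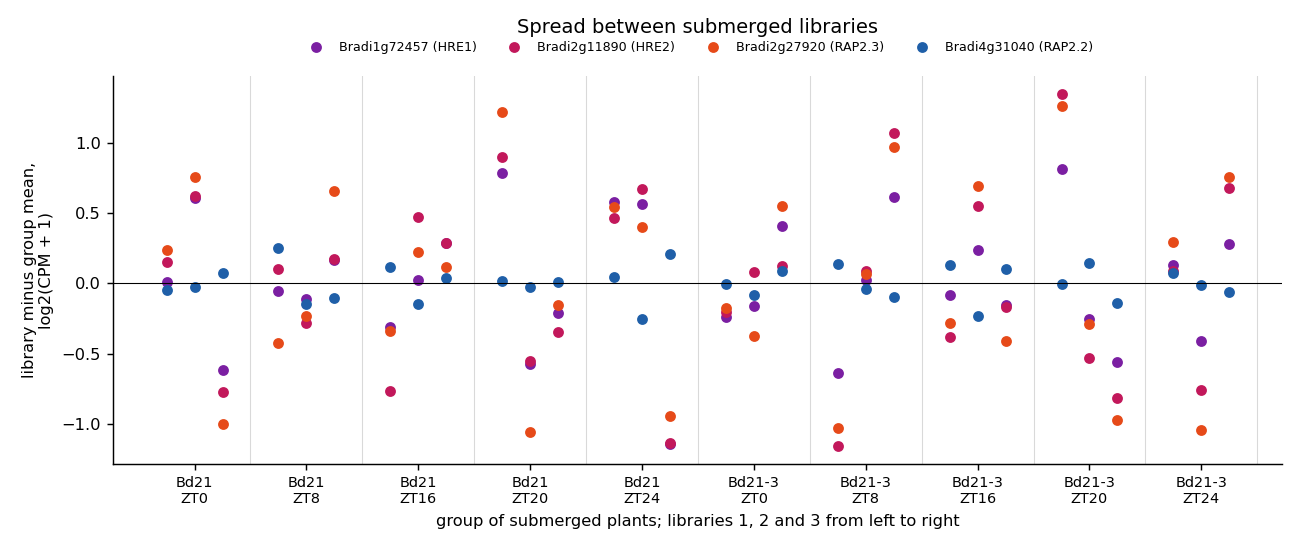
Level of the 4 raised members in each S library minus the mean of its group (y axis, log2(CPM + 1) scale), by group of ecotype and ZT (x axis), with 1 marker per library and gene and libraries 1, 2 and 3 from left to right. The markers of Bradi1g72457, Bradi2g11890 and Bradi2g27920 spread widely and mostly rise and fall in the same libraries, and those of Bradi4g31040 stay close to 0.

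Genes of the pathway around the ERF-VIIs responded unevenly. Of 11 genes of the oxygen-dependent N-degron pathway, which oxidises, arginylates and degrades ERF-VII proteins, 2 to 3 rose in Bd21 and 2 to 4 in Bd21-3 at each time, and none fell. The ones that rose at all 10 comparisons were PCO matches, the oxidases that mark ERF-VIIs. Bradi2g14450 (PCO1) went from group means of 6.42 to 11.3 CPM in LL of Bd21 to 165 to 375 CPM in S, with a log2FC of 4.23 to 5.03 over both ecotypes (limma adjusted p 6.8e-24 to 7.1e-20). Bradi4g01230 (PCO2) had a log2FC of 2.67 to 4.54. Bradi5g25480 (PCO3) was called in 1 comparison, with 0.85 to 1.74, and Bradi2g23790 (ATE2, an arginyl transferase) in 2, with 0.29 to 2.25. The median log2FC of the 11 genes was 0.17 to 0.54 in Bd21 and 0.29 to 0.89 in Bd21-3.

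Of 8 matches on a list drawn up around partners and regulators of ERF-VIIs, 1 to 2 rose at each time in Bd21 and 2 in Bd21-3. Bradi2g12030 matches HRA1, a protein induced by hypoxia that restrains RAP2.12 in *Arabidopsis*, and had a log2FC of 4.88 to 7.45, called in all 10 comparisons. Bradi1g65810 matches MPK3, a kinase, and was called in 9, with 2.00 to 5.06. Bradi4g35363 (ZPR2) fell in 3 comparisons, all of Bd21-3, with -2.88 to -0.04 over both ecotypes. In Bd21 its group means in S and LL were at most 5.70 CPM, under the 15 CPM that a call needs. The median of the 8 was -0.07 to 0.35 in Bd21 and 0.08 to 0.45 in Bd21-3. Of 17 ethylene signaling genes, upstream of many ERFs, 1 to 2 rose at each time in Bd21 and 1 to 3 in Bd21-3, and 0 to 2 fell in each, with medians of -0.18 to 0.03 and 0.11 to 0.26. Bradi1g36530 and Bradi3g07397, both matches to EBF1, an F-box protein that removes the ethylene regulator EIN3, went opposite ways. The first rose in all 10 comparisons, with a log2FC of 1.58 to 3.06, and the other fell in 2, with -2.55 to -0.96. Bradi2g35080 (ETR1, an ethylene receptor) fell in 6, with -2.75 to -0.67, and Bradi1g11650 (EIN2) rose in 1, with -1.75 to 1.83.

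Hypoxia core genes, many of them targets of ERF-VIIs in *Arabidopsis*, rose widely. Of 58 matches to the core list, genes induced by low oxygen across cell types, 57 were tested, 20 to 30 rose at each time in Bd21 and 22 to 29 in Bd21-3, and 2 to 4 fell in each. The list as used here, of 45 Arabidopsis genes, holds none of the 7 members. This does not mean that published core sets leave them out. The HRA1 match is counted in it again, and 19 of its genes rose in all 10 comparisons. Its median log2FC was 1.26 to 2.93 in Bd21 and 0.92 to 2.76 in Bd21-3. Bradi4g22620 (ADH1, alcohol dehydrogenase of ethanolic fermentation) had 7.66 to 10.58 and Bradi1g65440 (PDC1, pyruvate decarboxylase of the same route) 5.82 to 8.66. Bradi1g69320 (PGB1, a phytoglobin that scavenges nitric oxide) had 6.08 to 7.96, and Bradi1g22010, a gene without a symbol in the annotation, 7.21 to 9.07. All 4 were called in all 10 comparisons.

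**Figure D5:**
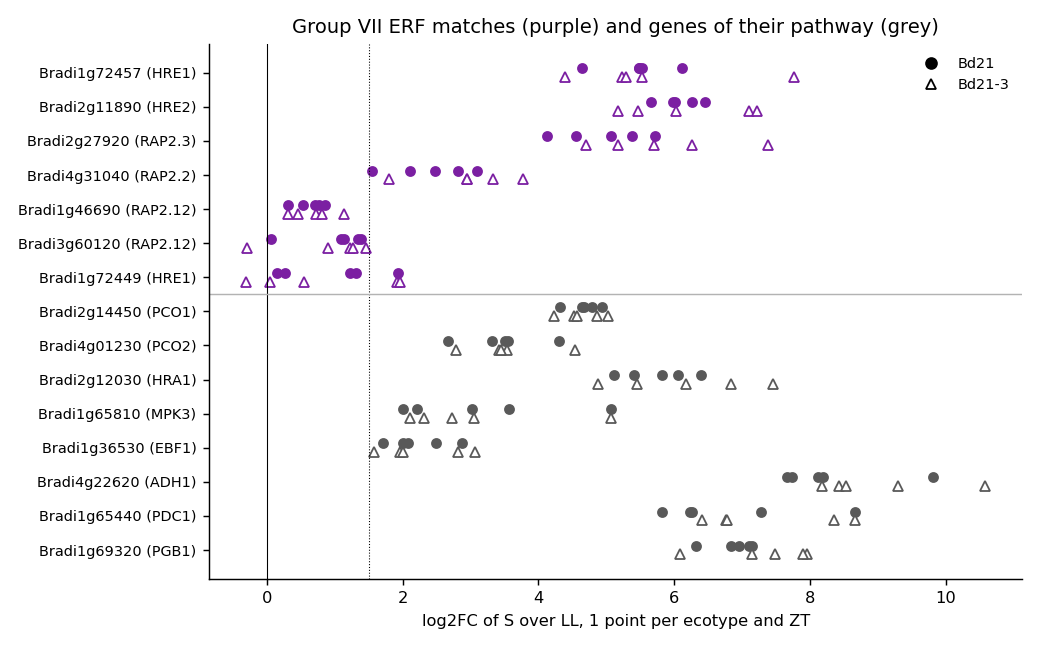
S over LL of the 7 members and of 8 named genes of their pathway as log2FC (x axis, log2(CPM + 1) scale), with genes down the y axis and 1 point per ecotype and ZT, filled circles for Bd21 and open triangles for Bd21-3. The 8 were picked from named genes called risen in 9 or 10 comparisons and do not stand for the whole pathway. Named genes left out include Bradi2g35080, Bradi3g07397 and Bradi4g35363, which fell in some comparisons, and Bradi1g22010, which rose. The dotted line marks the limit of 1.5, and the matches to ADH1, PDC1 and PGB1 lie farthest to the right, from 5.82 to 10.58.

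The genes whose pattern was most like that of each raised member were sought by Pearson correlation of log2(CPM + 1) over the 30 group means, among 14853 genes with a mean of at least 15 CPM in 1 group. These values describe likeness over groups that share their libraries. For Bradi1g72457 the 3 nearest were Bradi2g12030 (HRA1, r = 0.989), Bradi4g16750 (LBD41, r = 0.983) and Bradi2g11890, itself a member (r = 0.983). Bradi2g11890 was nearest to Bradi4g16750 (r = 0.994), Bradi2g56850 (FAB2, a fatty acid desaturase, r = 0.993) and Bradi2g12030 (r = 0.993). Bradi2g27920 was nearest to Bradi5g23150 (match AT4G10270, r = 0.983) and to Bradi1g33075 and Bradi2g09875, which have no match in the table (r = 0.98 each). Bradi4g31040 was nearest to Bradi2g09875 (r = 0.97), Bradi2g27920 (r = 0.966) and Bradi1g53230 (FD3, a ferredoxin, r = 0.964). The HRE1 and HRE2 matches thus shared neighbours with each other, and the RAP2.3 and RAP2.2 matches shared 1. Without the NG library that stood apart, the 3 nearest of each gene were the same.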

How the data were processed

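The authors aligned the reads of unstranded TruSeq libraries to the Bd21 genome (version 3.0) with HISAT2 2.1.0, sorted them with SAMtools 1.12, counted them per gene with HTSeq and scaled them with edgeR. The deposited values are a signal in CPM per gene, scaled by the authors to effective library sizes, so that columns sum to 843958 to 1243716. Whole reads were recovered from them, since 1 read was worth 0.0608 to 0.261 CPM and 100% of values came out whole within 0.001 of a read. The files also hold the authors' fold changes, false discovery rates and group averages, which were not used. All 89 columns of single libraries matched a sample, and 0 were left unmatched.

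The main test was limma-trend (limma 3.58.1, R 4.3.3) on log2(CPM + 1) with 1 term for each of the 30 groups, over 24109 genes reaching 1 CPM in 3 or more libraries, with Benjamini-Hochberg adjustment per comparison. A call needed an adjusted p under 5e-06, an absolute log2FC of 1.5 or more and 15 CPM or more as the mean of either group. For changes between times the same fit gave an F test with the range between times in place of the log2FC. On simulated counts for S over LL of Bd21 at ZT8 over 24109 genes, limma recovered 95% of changes of 2 and 100% of changes of 3 on the log2 scale, edgeR 97% and 100%, with 0 false calls. These counts had the same spread for all genes and groups, and changes only in genes with a mean of at least 30 CPM. They did not cover genes as scarce in LL as 3 of the raised members, or unequal spread between groups. edgeR 4.0.16 on the recovered reads, other pseudocounts, filters, scalings and limits, a replicate block, the compared groups alone, NG as the control and each library left out were the alternatives. A second version of the fit to the compared groups alone was added after seeing the data. Depth was 3896851 to 16044727 reads per library (median 9037308). Intervals on ratios cover counting error only. Summaries used Python 3.11.15, pandas 2.3.3, NumPy 2.4.6, SciPy 1.17.1 and matplotlib 3.10.9.

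The members and the gene lists were chosen with earlier results of these data known. Every member is named, with library values for those with a call in S over LL. Of each list, up to 4 genes with the largest mean absolute log2FC among those called are named, and for each raised member the 3 most correlated genes. Of the 11 root markers 10 were tested, and at each time 0 to 4 rose and 0 to 1 fell, all of the 4 named being matches to the potassium transporter HAK5 (Bradi1g59730, Bradi5g08520, Bradi2g59620 and Bradi1g15610). Of the 11 green tissue markers, 2 to 10 fell at each time in Bd21 and 3 to 10 in Bd21-3, among them Bradi4g08800 (RBCS1A), Bradi4g07380 and Bradi1g12130 (both CAB1) and Bradi4g09120 (RCA).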

Additional observations from a re-analysis of the deposited data

Results flagged for a closer look

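Each result here is one whose effect differed between ecotypes or times in a test of the difference itself, at a limma adjusted p under 0.05. The response of Bradi2g27920 at ZT16 was larger in Bd21-3 than in Bd21 by 2.82 on the log2 scale (adjusted p = 0.0049). That of Bradi4g31040 was larger in Bd21-3 by 0.67 at ZT16 (adjusted p = 0.031) and by 0.83 at ZT24 (adjusted p = 0.030). None of these 3 passed the limit of 5e-06.

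S over LL differed between the 5 times by the following ranges on the log2 scale. In Bd21 the range was 0.55 for Bradi1g46690 (limma adjusted p = 0.0047), 1.33 for Bradi3g60120 (adjusted p = 3.4e-07) and 1.56 for Bradi4g31040 (adjusted p = 4.8e-08). In Bd21-3 it was 0.83 for Bradi1g46690 (adjusted p = 5.1e-06), 1.75 for Bradi3g60120 (adjusted p = 1.5e-10) and 1.97 for Bradi4g31040 (adjusted p = 1.4e-10). Also in Bd21-3 it was 2.27 for Bradi1g72449 (adjusted p = 0.022), 3.36 for Bradi1g72457 (adjusted p = 0.0026) and 2.69 for Bradi2g27920 (adjusted p = 0.011). Plants of each time shared a tank, so a difference between times and one between tanks cannot be told apart.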

How the results depend on the processing

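Of the 40 member comparisons called risen in S over LL, 40 stayed called under pseudocount 0.25, no filter, the 15 CPM filter, no variance trend, median of ratios scaling, the replicate block, edgeR and both looser limits, 39 with pseudocount 5, 39 with NG as the control, 38 after quantile normalization, 2 with only the groups compared (1 in each ecotype) and 15 in the version of that fit with its own filter (4 in Bd21, 11 in Bd21-3). All 40 had an adjusted p under 0.05 in both of these last fits, and the second called 0.554% and 1.62% of all tests risen. Fewer libraries set the spread in these fits. Other S over LL comparisons became called: Bradi1g72449 at ZT0 of Bd21 with NG as the control (3.81), Bradi1g72449 at ZT0 of both ecotypes and ZT16 of Bd21-3 with an adjusted p under 0.05, and with a log2FC of at least 1 Bradi1g46690 at ZT0 of Bd21-3 and Bradi3g60120 at ZT8 to ZT24 of Bd21 and ZT16 to ZT24 of Bd21-3. Bradi3g60120 at ZT20 of Bd21-3 was also called by edgeR (1.52) and without LL replicate 1 (1.51) or 3 (1.55). With an adjusted p under 0.05, calls in the other comparisons were 1 and 2 in LL over NG of Bd21 and Bd21-3, 1 between ecotypes in S, 1 for the ecotype difference in response, 5 for ZT24 over ZT0 in S, 6 for S over LL between times and 9 between times within a treatment. With a log2FC of at least 1 they were 1 between ecotypes in S, 1 for ZT24 over ZT0 in S and 4 between times within a treatment, and with pseudocount 5 they were 1 between ecotypes in S and 1 between times. edgeR called 1 between times within a treatment, Bradi1g72457 in NG of Bd21-3. Leaving out 1 library gave 19 to 20 risen calls in Bd21, 20 to 21 in Bd21-3 and 2 to 3 for S over LL between times, and every other count stayed at 0 (0 to 0).

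Bradi4g31040 at ZT0 of Bd21 had a log2FC of 1.49 with pseudocount 5, 1.36 after quantile normalization, 1.18 with NG as the control and 1.47 without LL replicate 3, and was then not called, and at ZT0 of Bd21-3 it had 1.48 after quantile normalization. Values near 0 changed sign. Bradi3g60120 at ZT0 of Bd21 had -0.025 after quantile normalization and -0.29 against NG. Bradi1g72449 at ZT20 of Bd21-3 had 1.72 against NG and from -0.75 without LL replicate 1 to 0.010 without S replicate 2, and at ZT24 of Bd21-3 -0.0098 under median of ratios scaling, -0.13 after quantile normalization, -0.12 in edgeR, from -0.56 without LL replicate 3 to 0.42 without LL replicate 1, with -0.19 without S replicate 3. In Bd21 it had -0.10 at ZT20 without LL replicate 2, from -0.21 without S replicate 1 to 0.54 without S replicate 3, and at ZT24 from -0.22 without S replicate 2 to 0.65 without S replicate 3. The labels do not say whether the replicate numbers pair the libraries. Same-numbered S and LL deviations correlated above 0.1 in 5 of 29 pairs of libraries (-0.66 to 0.441). This cannot settle pairing, since the deviations within a group are tied to each other. The fit with the replicate block gave 20 and 20 risen calls and 3 for S over LL between times, with 0 elsewhere.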
